A study of Mus musculus with 36 samples.

Results

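The integrin subunits Itga1, Itga2, Itga3, Itga6, Itga7, Itga8, Itgav, Itgb1, Itgb4 and Itgb8 were taken from the gene count table by their Ensembl identifiers. All 10 were found among the 52636 genes of the table, and all 10 were among the 15330 genes with enough counts to be tested. Their RNA was compared between perisynaptic Schwann cells (PSCs, the NG2DsRed+/S100GFP+ cells), S100GFP+ cells and NG2DsRed+ cells. All 3 cell types were sorted by flow cytometry from hindlimb, forelimb, pectoralis and diaphragm muscle of juvenile transgenic mice that carry both reporters, S100β-GFP and NG2-dsRed. The labels give ages from P15 up to a day that runs from P21 to P46 across the samples, whereas the study's methods give an upper age of P21. GFP in these mice is driven by regulatory sequence of S100b and dsRed by that of Cspg4 (the gene of NG2), so a cell enters a gate by the activity of those transgenes. Each library holds the cells of 1 mouse, and 9 PSC, 8 S100GFP+ and 10 NG2DsRed+ libraries were analysed.

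Integrins are receptors for the extracellular matrix, each made of an alpha and a beta subunit, and they tie the matrix to the actin cytoskeleton and to signalling inside the cell. Itgb1 is the shared beta partner of most alpha subunits listed here. The products of Itga1 and Itga2 form the collagen receptors of this group, and those of Itga3, Itga6 and Itga7 form laminin receptors. Itgb4 pairs only with Itga6, in a laminin receptor that is linked to intermediate filaments. Itga8, Itgav and Itgb8 belong to receptors of RGD-type ligands such as nephronectin and latent TGFβ, so the 10 genes are not all collagen or laminin receptors. In peripheral nerve, laminin receptors of Schwann cells are known for their part in axon sorting and myelination, and muscle fibres and synapses are covered by a basal lamina rich in laminins and type IV collagen.

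Libraries held 5221655 to 9592875 counts. The NG2 gene Cspg4 stood at 686 ± 132 CPM (counts per 1000000, scaled between libraries with TMM factors) in PSCs (mean ± SD, n = 9), at 70.7 ± 42.1 in S100GFP+ cells (n = 8) and at 662 ± 137 in NG2DsRed+ cells (n = 10). The Schwann cell factor Sox10 stood at 504 ± 103, 20.1 ± 12.0 and 4.43 ± 2.43 CPM. In the S100GFP+ libraries 10 macrophage and leukocyte markers summed to 2676 to 21500 CPM against 43.0 to 590 in PSCs, and 10 fibroblast markers to 8603 to 22200 CPM against 679 to 1308. None of the markers of either list was at 0 in a whole cell type. In the NG2DsRed+ libraries 11 pericyte and smooth muscle markers summed to 7370 to 15840 CPM and 10 endothelial markers to 1884 to 4449 CPM. The pericyte and smooth muscle list includes Cspg4, at 501 to 961 CPM in PSC libraries. A large part of that sum in PSCs is thus the NG2 gene itself. PSC library 18 stood apart, with the lowest level of its cell type in 8 of the 10 subunits and the highest marker sums of muscle fibres (1416 CPM against 157 to 734), macrophages and leukocytes (590 against 43.0 to 289) and pericytes and smooth muscle (1488 against 793 to 1276). Without it the subunits called were as many in each direction of each comparison. A level in such a sorted population is an average, and fewer cells of a type cannot be told apart from less RNA per cell. The part that these other cells had in the integrin differences was not tested.

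Against S100GFP+ cells, 7 of the 10 subunits were higher in PSCs (Itga1, Itga2, Itga8, Itgav, Itgb1, Itgb4 and Itgb8), none was lower, and Itga3, Itga6 and Itga7 did not pass the test (edgeR quasi-likelihood test, Benjamini-Hochberg adjusted p under 0.05). Over all genes tested 22.9% were called higher in PSCs and 24.1% lower. Against NG2DsRed+ cells, 3 subunits were higher in PSCs (Itga2, Itgav and Itgb8), 4 were lower (Itga3, Itga6, Itga7 and Itgb1) and Itga1, Itga8 and Itgb4 did not pass, beside 20.9% higher and 23.1% lower over all genes. Between the single-reporter populations, S100GFP+ cells had 3 subunits higher than NG2DsRed+ cells (Itga2, Itgav and Itgb8) and 7 lower, beside 18.1% and 15.2% of all genes. The median log2 fold change of the 10 subunits was 1.20 for PSCs against S100GFP+ cells, -0.32 for PSCs against NG2DsRed+ cells and -1.58 for S100GFP+ against NG2DsRed+ cells, where the medians of all genes tested were 0.04, 0.02 and -0.02. The 3 comparisons share libraries, so they are not independent of one another. The 3 subunits that PSCs held at a higher level than each of the other populations were Itga2, Itgav and Itgb8, beside 13.9% of all genes tested.

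**Figure D1:**
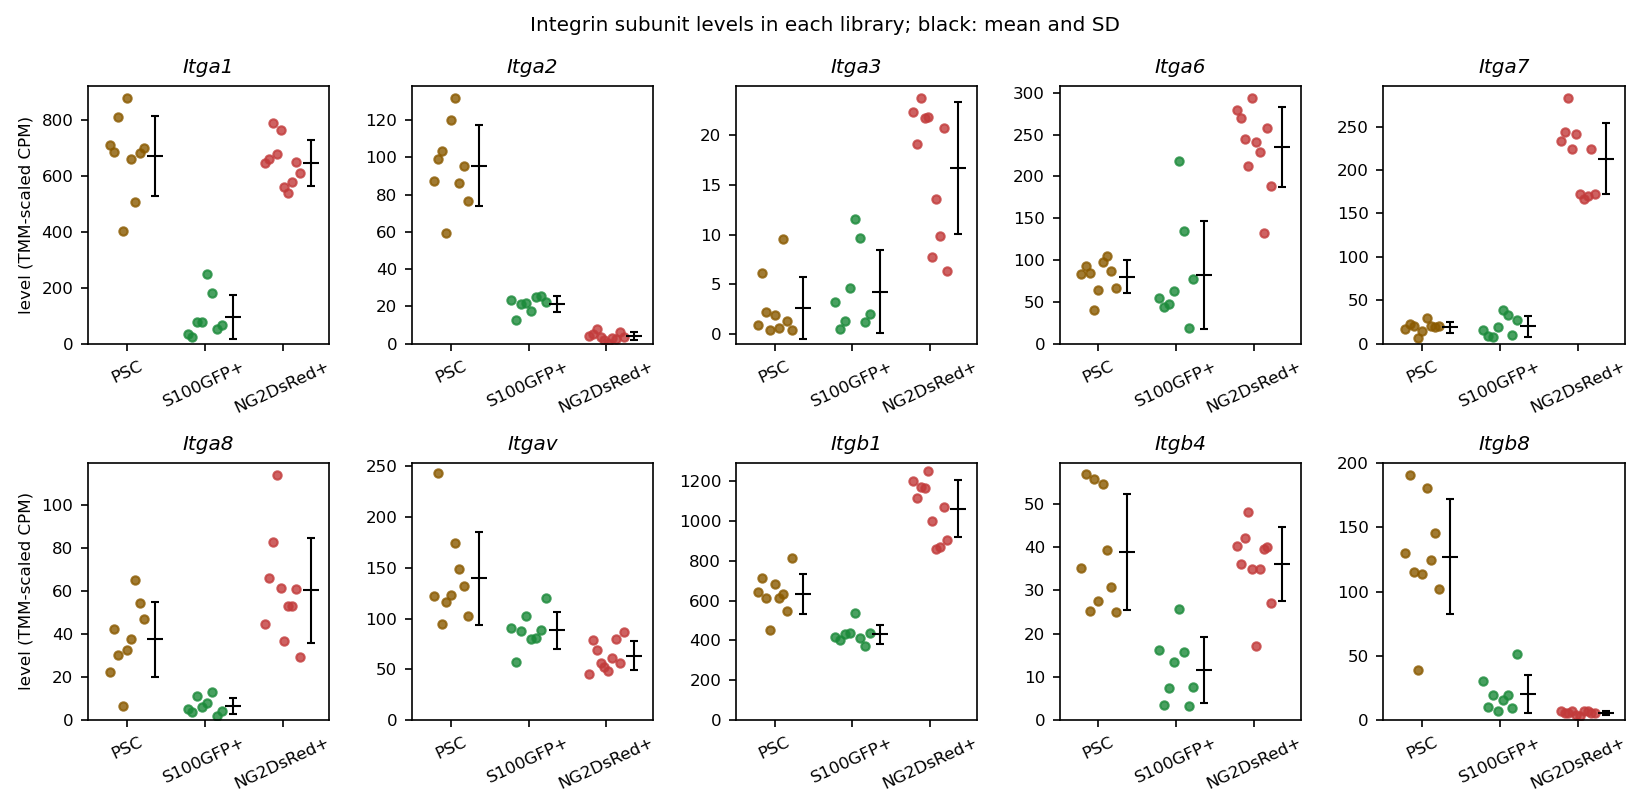
Level of each integrin subunit in every library (vertical axis, TMM-scaled CPM) by cell type (horizontal axis); coloured points are libraries, and the black marks are the mean and SD. Itga2 and Itgb8 have their high points in PSCs, Itga7 and Itgb1 in NG2DsRed+ cells, and Itga1 is low only in S100GFP+ cells among the 3 cell types.

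The collagen receptor genes differed from each other in their pattern. Itga1 (ENSMUSG00000042284), the alpha subunit of the receptor that favours basement membrane collagen, was at 402, 685 and 880 CPM in PSCs (lowest, median and highest library), at 23.6, 72.7 and 250 CPM in S100GFP+ cells and at 541, 648 and 791 CPM in NG2DsRed+ cells. Every PSC and every NG2DsRed+ library lay above every S100GFP+ library, while PSC and NG2DsRed+ libraries overlapped. Over all genes tested, libraries without overlap were found for 5.24% (higher in PSCs than in S100GFP+ cells) and 4.38% (lower in S100GFP+ than in NG2DsRed+ cells). The log2 fold change was 2.80 ± 0.33 (SE) for PSCs against S100GFP+ cells (adjusted p = 3.06e-08) and -2.75 ± 0.32 for S100GFP+ against NG2DsRed+ cells (adjusted p = 6.85e-08). PSCs and NG2DsRed+ cells could not be separated (0.05 ± 0.28, adjusted p = 0.905), with 2 SE on either side spanning -0.52 to 0.62.

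Itga2 (ENSMUSG00000015533), whose product favours fibrillar collagen, was at 59.5, 95.5 and 132 CPM in PSCs, at 12.8, 22.0 and 25.7 CPM in S100GFP+ cells and at 0.461, 3.71 and 7.70 CPM in NG2DsRed+ cells. The 3 cell types formed separate ranges in the order PSC, S100GFP+, NG2DsRed+, with no library of one reaching into the next. Such a gap over all genes tested was found for 5.08% with PSCs above NG2DsRed+ cells and for 7.21% with S100GFP+ above NG2DsRed+ cells. The level in PSCs exceeded that in S100GFP+ cells 4.50-fold (log2 fold change 2.17 ± 0.27, adjusted p = 1.20e-07) and that in NG2DsRed+ cells 24.1-fold (4.59 ± 0.28, adjusted p = 1.02e-13). S100GFP+ cells in turn exceeded NG2DsRed+ cells by 2.42 ± 0.27 (adjusted p = 3.00e-08). Counts of Itga2 in NG2DsRed+ libraries ran from 3 to 61, so the levels there carry a large counting error.

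Both genes lie next to each other on the minus strand of chromosome 13 (GRCm38), Itga2 at 114833081 to 114932100 and Itga1 at 114953096 to 115101964, with 20995 bases between them. The ratio of Itga1 to Itga2, each per kilobase of exon, had a median of 2.74 in PSCs (1.93 to 3.51), 1.27 in S100GFP+ cells (0.588 to 5.52) and 63.8 in NG2DsRed+ cells (38.5 to 466). Itga1 was below Itga2 in 3 of 8 S100GFP+ libraries by this measure, but in none by coding length, where the medians were 7.14, 3.30 and 166 and the lowest S100GFP+ ratio 1.53. The highest ratio belonged to the NG2DsRed+ library with 3 counts of Itga2. Because these neighbours and their partner Itgb1 differ so much in pattern, the 250 bases before the start of each are shown, 5′ to 3′, from the RefSeq promoter table (GRCm38.p6). No exon of GENCODE M21 lies in these windows, at chr13:114932101-114932350 (minus strand) for Itga2, chr13:115101965-115102214 (minus strand) for Itga1 and chr8:128685404-128685653 (plus strand) for Itgb1. Capitals mark matches, on either strand, to the SOX core ACAAAG or ACAATG, the TEAD motif GGAATG, the E-box CAGCTG, the RUNX motif TGTGGT or the AP-1 motif TGANTCA.
Itga2: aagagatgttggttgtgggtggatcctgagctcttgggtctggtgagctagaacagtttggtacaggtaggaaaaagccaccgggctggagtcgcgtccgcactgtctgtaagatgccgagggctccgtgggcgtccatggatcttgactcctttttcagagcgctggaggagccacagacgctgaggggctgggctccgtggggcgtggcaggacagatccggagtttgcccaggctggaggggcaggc
Itga1: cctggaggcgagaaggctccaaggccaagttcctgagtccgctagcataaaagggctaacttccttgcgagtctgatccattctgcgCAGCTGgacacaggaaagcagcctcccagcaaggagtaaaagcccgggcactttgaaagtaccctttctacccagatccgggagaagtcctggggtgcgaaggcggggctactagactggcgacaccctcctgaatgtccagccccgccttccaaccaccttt
Itgb1: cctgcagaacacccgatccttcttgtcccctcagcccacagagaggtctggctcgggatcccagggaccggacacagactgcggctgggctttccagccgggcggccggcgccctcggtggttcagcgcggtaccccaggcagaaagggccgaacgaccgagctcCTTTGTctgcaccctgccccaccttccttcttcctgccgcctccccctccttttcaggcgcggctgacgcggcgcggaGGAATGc

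The Itga2 window holds none of these letters, the Itga1 window holds the E-box, and the Itgb1 window holds the SOX core ACAAAG on its minus strand and the TEAD motif. The E-box was found in 13.0% of the 32851 windows of this length in the table, ACAAAG in 16.5%, GGAATG in 12.6%, TGTGGT in 14.0%, ACAATG in 10.7% and TGANTCA in 6.75%. These matches are a description of the letters and not of binding. The windows also differ in base composition, with 21 CpG dinucleotides and 68.0% G and C before Itgb1, 12 and 60.8% before Itga2, and 10 and 57.6% before Itga1. Of the 10 genes, 7 matched the RefSeq table, and Itga6, Itga7 and Itgb4 were not among them.

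The laminin receptor alpha subunits had their highest level in NG2DsRed+ cells. Itga7 (ENSMUSG00000025348), known as the laminin receptor subunit of muscle fibres and vascular smooth muscle, was at 6.28, 20.2 and 29.3 CPM in PSCs, at 7.99, 17.2 and 39.3 CPM in S100GFP+ cells and at 167, 224 and 283 CPM in NG2DsRed+ cells. All NG2DsRed+ libraries lay above all others, which holds in this direction for 8.83% of genes against PSCs and for 4.38% against S100GFP+ cells. The PSC level was 11.3-fold lower than that of NG2DsRed+ cells (log2 fold change -3.49 ± 0.29, adjusted p = 3.79e-11), and that of S100GFP+ cells 10.6-fold lower (-3.41 ± 0.30, adjusted p = 3.20e-10). PSCs and S100GFP+ cells overlapped and did not pass the test (-0.08 ± 0.28, adjusted p = 0.835, 2 SE spanning -0.63 to 0.47).

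Itga6 (ENSMUSG00000027111), the laminin receptor subunit shared by Itgb1 and Itgb4, was at 40.8, 84.2 and 105 CPM in PSCs, at 19.1, 58.8 and 219 CPM in S100GFP+ cells and at 132, 243 and 294 CPM in NG2DsRed+ cells. PSC and NG2DsRed+ libraries did not overlap (-1.55 ± 0.29, adjusted p = 6.64e-05), whereas S100GFP+ libraries reached into both ranges. The difference between S100GFP+ and NG2DsRed+ cells was -1.51 ± 0.30 (adjusted p = 0.000221), and that between PSCs and S100GFP+ cells was -0.04 ± 0.30 (adjusted p = 0.931, 2 SE spanning -0.64 to 0.56). Within S100GFP+ cells, libraries 17 and 22 held 219 and 135 CPM of Itga6, and the other 6 held 19.1 to 77.8. The same libraries had the highest sums of endothelial markers of this cell type, 3389 and 1820 CPM, with library 14 next at 1002 and the other 5 at 145 to 236. Libraries 17 and 22 had the highest pericyte and smooth muscle sums too (1649 and 1395 CPM), and libraries 14, 17 and 22 the lowest macrophage and leukocyte sums (7170, 4704 and 2676 CPM against 15110 to 21500), and the part of these in the subunit levels was not tested. Libraries 17 and 22 also had the highest Itga1 (250 and 183 CPM), Itga3 (11.5 and 9.66 CPM) and Itga7 (39.3 and 33.4 CPM) among S100GFP+ cells. Without libraries 14, 17 and 22, Itga6 was higher in PSCs than in S100GFP+ cells, with a log2 fold change of 0.78 (adjusted p = 0.0124), and Itga7 and Itga3 stood at 0.53 and 0.73 and did not pass (adjusted p = 0.128 and 0.374). Since libraries 17 and 22 held the most RNA of these subunits in their cell type, leaving them out raises these fold changes. The values without them are therefore a description and not a test.

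**Figure D2:**
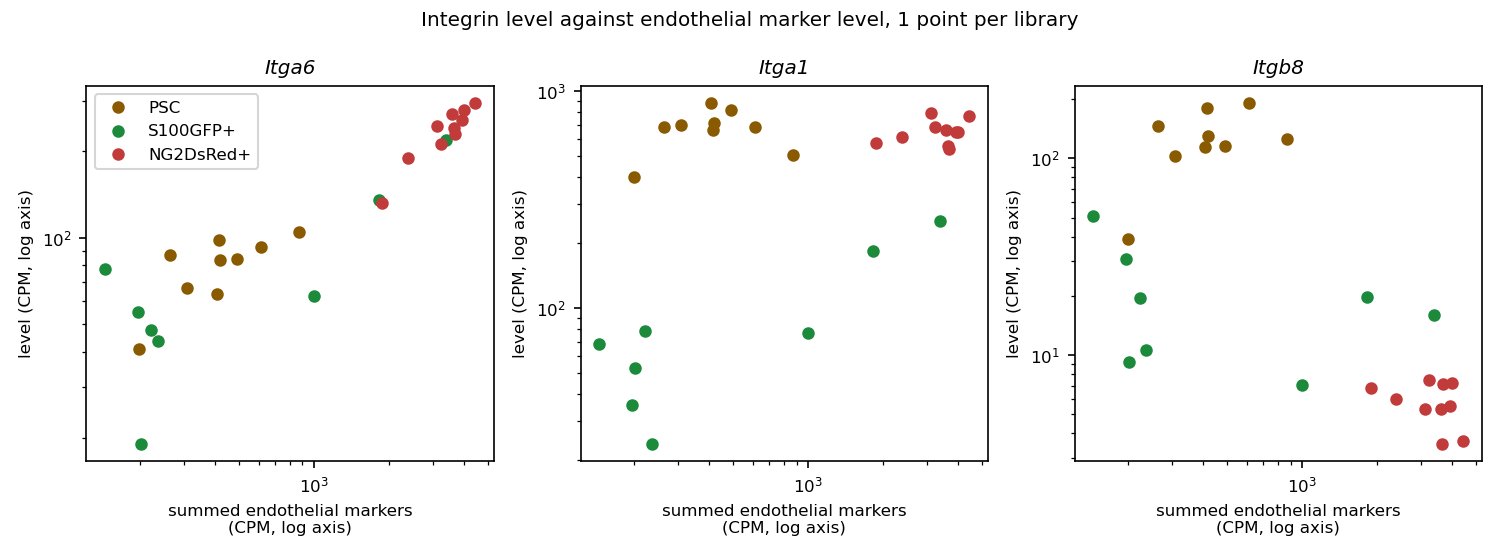
Level of Itga6, Itga1 and Itgb8 (vertical axes, CPM, log scale) against the summed level of 10 endothelial markers (horizontal axes, CPM, log scale), with 1 point per library, coloured by cell type. The S100GFP+ libraries with the most endothelial marker RNA, 1820 and 3389 CPM, sit among the NG2DsRed+ points for Itga6 but below them for Itga1.

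Itga3 (ENSMUSG00000001507), a subunit of an epithelial laminin receptor, was the lowest alpha subunit in PSCs and S100GFP+ cells. Its levels were 0.349, 1.29 and 9.54 CPM in PSCs, 0.498, 2.58 and 11.5 CPM in S100GFP+ cells and 6.28, 19.9 and 23.8 CPM in NG2DsRed+ cells. The ranges overlapped between all cell types, and single PSC libraries held as few as 2 counts. Itga3 was lower in PSCs than in NG2DsRed+ cells (-2.68 ± 0.57, adjusted p = 0.000293) and lower in S100GFP+ than in NG2DsRed+ cells (-2.00 ± 0.58, adjusted p = 0.00802). The difference between PSCs and S100GFP+ cells did not pass the test (-0.69 ± 0.58, adjusted p = 0.351, 2 SE spanning -1.85 to 0.48). PSC library 31, with the most Itga3 (9.54 CPM), also had the most endothelial marker RNA among PSC libraries, 870 CPM against 200 to 612 in the others, and stood apart in 10 chondrocyte and tenocyte markers, with 4708 CPM against 11.0 to 122.

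The genes of the RGD-type receptors did not share one order. Itgav (ENSMUSG00000027087), whose product pairs with Itgb8, Itgb1, Itgb3 and Itgb5, was at 94.9, 123 and 244 CPM in PSCs, at 57.0, 88.4 and 120 CPM in S100GFP+ cells and at 45.9, 58.9 and 86.9 CPM in NG2DsRed+ cells. PSCs lay above all NG2DsRed+ libraries (1.14 ± 0.17, adjusted p = 2.18e-06) and overlapped with S100GFP+ libraries (0.66 ± 0.18, adjusted p = 0.00321). The step from NG2DsRed+ to S100GFP+ cells was small (0.48 ± 0.17, adjusted p = 0.0312). It did not pass when either S100GFP+ library 14 or 33 or either NG2DsRed+ library 15, 21 or 30 was left out (adjusted p = 0.0503 to 0.0852).

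Itgb8 (ENSMUSG00000025321), the beta subunit of a receptor that activates latent TGFβ, was at 38.9, 125 and 191 CPM in PSCs, at 7.02, 17.8 and 51.2 CPM in S100GFP+ cells and at 3.54, 5.72 and 7.44 CPM in NG2DsRed+ cells. PSCs lay above all NG2DsRed+ libraries, and overlapped with S100GFP+ cells only through PSC library 18 (38.9 CPM) and S100GFP+ library 33 (51.2 CPM). The log2 fold change was 4.45 ± 0.32 against NG2DsRed+ cells (21.9-fold, adjusted p = 2.73e-12), 2.64 ± 0.32 against S100GFP+ cells (6.22-fold, adjusted p = 6.37e-08) and 1.82 ± 0.31 for S100GFP+ against NG2DsRed+ cells (adjusted p = 2.25e-05). S100GFP+ library 33 also had the highest sum of Schwann cell lineage markers in its cell type, 452 CPM against 71.0 to 314 in the other 7. Per kilobase of exon, Itgb8 amounted to 97.1% of Itgav in the median PSC library (32.4% to 118%), to 20.6% in S100GFP+ cells (6.68% to 41.3%) and to 7.91% in NG2DsRed+ cells (6.59% to 15.2%).

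Itga8 (ENSMUSG00000026768), the nephronectin receptor subunit, was at 6.63, 37.7 and 65.1 CPM in PSCs, at 2.08, 5.83 and 12.9 CPM in S100GFP+ cells and at 29.5, 57.1 and 114 CPM in NG2DsRed+ cells. S100GFP+ libraries lay below all NG2DsRed+ libraries (-3.16 ± 0.37, adjusted p = 5.15e-08) and below PSC libraries except library 18 (2.48 ± 0.36 for PSCs, adjusted p = 1.31e-06). PSCs and NG2DsRed+ cells overlapped and did not pass (-0.68 ± 0.31, adjusted p = 0.0782, 2 SE spanning -1.31 to -0.06). That difference passed with limma-voom (-0.73, adjusted p = 0.00771) and without PSC library 31 (-0.82, adjusted p = 0.0383). Library 31 had the most Itga8 among PSC libraries, so leaving it out moves this fold change further below 0. The value without it is therefore a description and not a test. That library also had the chondrocyte and tenocyte marker sum of 4708 CPM given above, whose part was not tested.

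The beta partners Itgb1 and Itgb4 were lowest in S100GFP+ cells. Itgb1 (ENSMUSG00000025809) was at 453, 634 and 814 CPM in PSCs, at 372, 425 and 537 CPM in S100GFP+ cells and at 861, 1093 and 1249 CPM in NG2DsRed+ cells. Its order was NG2DsRed+, PSC, S100GFP+, with NG2DsRed+ libraries above all others and PSC and S100GFP+ libraries overlapping. Each step passed the test, with log2 fold changes of 0.56 ± 0.13 for PSCs against S100GFP+ cells (adjusted p = 0.000859), -0.74 ± 0.12 for PSCs against NG2DsRed+ cells (adjusted p = 1.46e-05) and -1.30 ± 0.13 for S100GFP+ against NG2DsRed+ cells (adjusted p = 4.30e-09). When libraries were scaled to their total counts alone, the median of all genes moved to 0.54, 0.30 and -0.24 in the 3 comparisons, and the directions and calls of Itgb1 stayed the same.

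Itgb4 (ENSMUSG00000020758), which myelinating Schwann cells are known to express, was at 24.9, 35.1 and 56.9 CPM in PSCs, at 3.29, 10.6 and 25.7 CPM in S100GFP+ cells and at 17.2, 37.9 and 48.2 CPM in NG2DsRed+ cells. It was higher in PSCs than in S100GFP+ cells (1.74 ± 0.31, adjusted p = 3.00e-05), and S100GFP+ cells were below NG2DsRed+ cells (-1.64 ± 0.31, adjusted p = 8.96e-05). PSCs and NG2DsRed+ cells overlapped, with 3 of 9 PSC libraries above all NG2DsRed+ libraries and 1 of 10 NG2DsRed+ libraries below all PSC libraries, and did not pass the test (0.11 ± 0.28, adjusted p = 0.789, 2 SE spanning -0.45 to 0.66). The 9 PSC libraries fell into separate ranges when divided by a technical share. In the 4 in which Lars2, Gm23935 and Gm15564 took 27.6% to 36.6% of counts, Itgb4 was at 39.3 to 56.9 CPM, and in the other 5, with shares of 3.64% to 17.8%, it was at 24.9 to 35.1 CPM. The same sets of libraries also had separate marker sums for macrophages and leukocytes (159 to 590 CPM against 43.0 to 145) and for melanocytes (44.1 to 70.0 CPM against 121 to 179), and the part of share and markers was not tested. This was not so for the other 9 subunits, whose ranges overlapped between these sets of libraries, and the calls of Itgb4 were kept with the share as a term in the fit. How many of all genes tested separate at this cut of 20% was not counted, so the gap may not be particular to Itgb4.

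**Figure D3:**
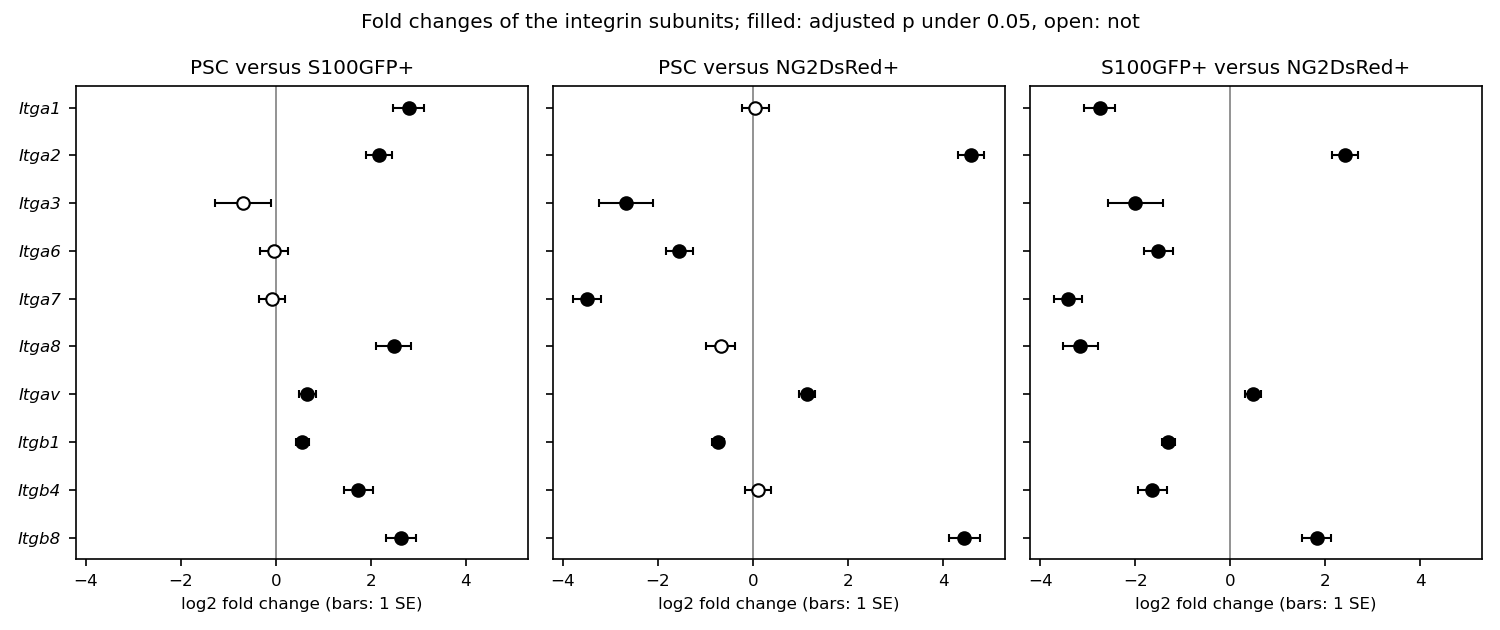
Log2 fold changes of the integrin subunits (horizontal axis, bars 1 SE) in the 3 comparisons between cell types; filled points passed the threshold of 0.05 on the adjusted p and open points did not. Itga2, Itgav and Itgb8 lie to the right of 0 in all 3 panels, and Itga7 reaches -3.49 and -3.41 against NG2DsRed+ cells.

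Levels of different genes were compared only per kilobase of the gene's exon union. Itgb1 was first in every cell type, at 156 CPM per kilobase in PSCs, 106 in S100GFP+ cells and 260 in NG2DsRed+ cells, and no library of any other subunit reached its range. Per kilobase of coding sequence Itga1 came closer in PSCs, at 190 against 265 CPM per kilobase of Itgb1, and 6 of 9 libraries of Itga1 lay above the lowest of Itgb1, though Itgb1 was above Itga1 within each of the 9. With the exon union, in PSCs the next was Itga1 at 36.1 CPM per kilobase, above its follower in 9 of 9 libraries. It was followed by Itga2 (13.4), Itgav (13.0) and Itgb8 (11.5), whose order varied between libraries, since Itga2 exceeded Itgav in 6 of 9 and Itgav exceeded Itgb8 in 5 of 9. By coding length this order turned, with Itgb8 (55.2) before Itgav (44.6) and Itga2 (27.0), so the place of these 3 depends on the length used. Lower still were Itga6 (8.88), Itgb4 (5.55), Itga8 (5.10), Itga7 (2.34) and Itga3 (0.453). In NG2DsRed+ cells Itga1 (34.9) was followed by Itga7 (26.3) and Itga6 (26.0), which stood at like levels with Itga7 ahead in 5 of 10 libraries, and Itga2 (0.549) and Itgb8 (0.523) came last. By coding length Itga6 (71.8) came before Itga7 (62.3) there. In S100GFP+ cells Itga6 (9.13) and Itgav (8.24) led the alpha subunits by their means, but Itga6 exceeded Itgav in only 2 of 8 libraries, and without libraries 14, 17 and 22 their means were 5.38 and 8.29. By coding length the order of means in S100GFP+ cells was Itgav (28.3), Itga1 (27.2) and Itga6 (25.2).

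As a share of the summed per-kilobase level of the 7 alpha subunits, Itga1 made up 45.7% ± 6.48 in PSCs (mean ± SD, n = 9), 15.5% ± 5.93 in S100GFP+ cells (n = 8) and 33.4% ± 2.21 in NG2DsRed+ cells (n = 10). The collagen receptor subunits Itga1 and Itga2 together took 50.6% to 71.9% in PSC libraries, 20.7% to 34.6% in S100GFP+ and 31.2% to 37.7% in NG2DsRed+ libraries. The laminin receptor subunits Itga3, Itga6 and Itga7 together took 10.3% to 20.3%, 19.4% to 56.1% and 44.8% to 58.2%. PSC libraries thus lay apart from NG2DsRed+ libraries in both sums, in opposite directions. S100GFP+ libraries had the widest range in the laminin receptor sum and PSC libraries in the collagen receptor sum. These sums cover only the 7 listed alpha subunits. Itga11, a collagen receptor subunit outside them, has an exon union of 5131 bases. It had means of 61.7 CPM in S100GFP+ cells, 0.595 in PSCs and 3.22 in NG2DsRed+ cells. Counting it would raise the collagen receptor sum most in S100GFP+ cells, so the gap to PSCs depends on the list. Itgav alone took 31.7% ± 10.6 in S100GFP+ cells, 16.6% ± 4.67 in PSCs and 5.80% ± 1.86 in NG2DsRed+ cells. These shares depend on the length used, because the exon union of Itga1 is 18599 bases long and its longest coding sequence 3537. Per kilobase of coding sequence, Itga1 made up 62.3% in PSCs, 25.2% in S100GFP+ cells and 50.6% in NG2DsRed+ cells, in the same order.

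**Figure D4:**
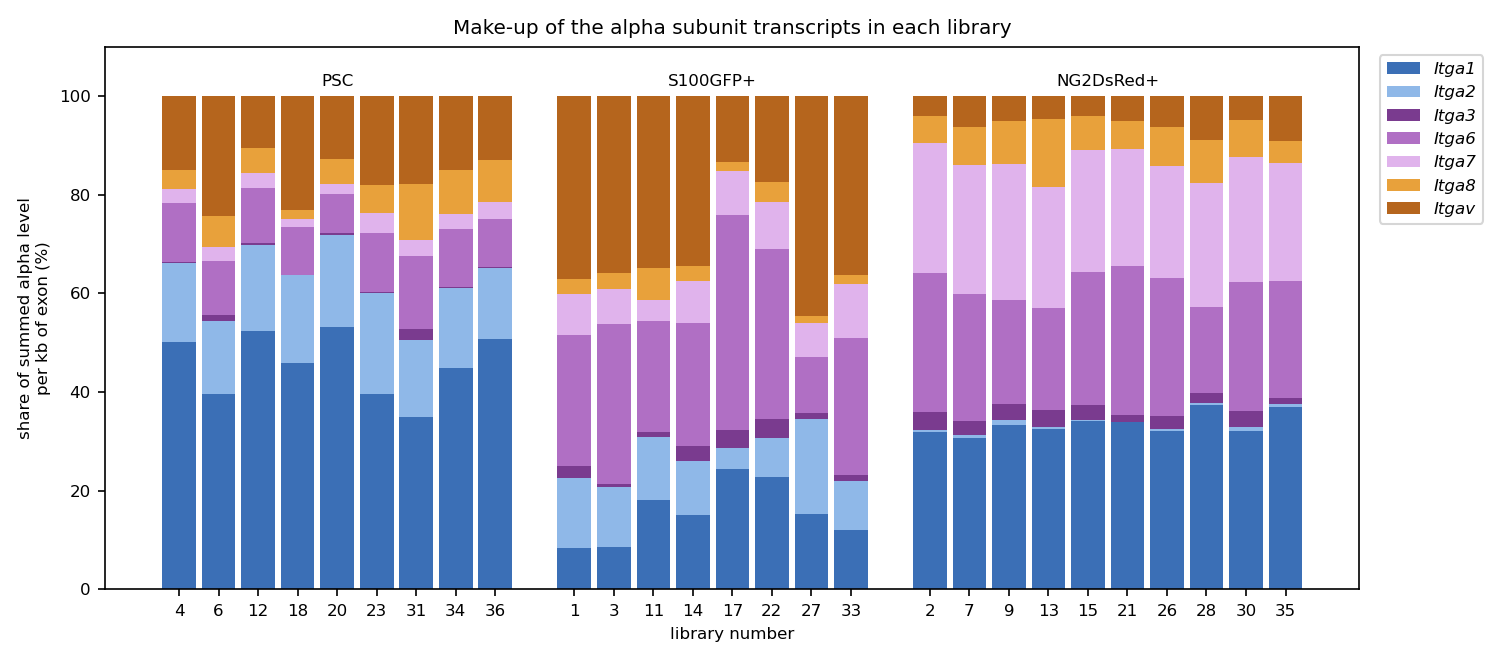
Share of each alpha subunit (vertical axis, percent of the summed CPM per kilobase of exon of the 7 alpha subunits) in every library (horizontal axis, library number within cell type). Itga1 and Itga2, in blue, fill 50.6% to 71.9% of each PSC bar, and Itga3, Itga6 and Itga7, in purple, fill 44.8% to 58.2% of each NG2DsRed+ bar.

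Other integrin subunits, from a list of 16 of which 13 were tested, were mostly lower in PSCs. Against S100GFP+ cells 1 was higher and 10 were lower, and against NG2DsRed+ cells 1 was higher and 9 were lower, with list medians of -4.04 and -1.73. Over all genes tested 22.9% were higher and 24.1% lower in PSCs than in S100GFP+ cells, and 20.9% and 23.1% than in NG2DsRed+ cells. The medians of all genes were 0.04 and 0.02. The same shares and medians apply beside the lists that follow. In the pairs of values for genes of these lists, the first is for PSCs against S100GFP+ cells and the second for PSCs against NG2DsRed+ cells, both as log2 fold changes. The higher one was in both comparisons Itgb3, the vitronectin receptor beta subunit that also pairs with Itgav. It stood at 120 ± 48.3 CPM in PSCs, 33.2 ± 12.4 in S100GFP+ cells and 15.8 ± 12.3 in NG2DsRed+ cells (log2 fold changes for PSCs of 1.85, adjusted p = 5.75e-05, and 2.91, adjusted p = 2.65e-08). Itgb5, a further partner of Itgav, was lower in PSCs than in both (-2.01 and -1.60, adjusted p = 9.82e-07 and 1.82e-05). The fibronectin receptor subunit Itga5 was lower in PSCs than in both (-2.46 and -2.60, adjusted p = 9.56e-09 and 2.78e-09), as was Itga9 (-2.49 and -2.37, adjusted p = 2.91e-07 and 4.86e-07). The fibrillar collagen receptor subunit Itga11 stood at 0.595 ± 0.473 CPM in PSCs, 61.7 ± 34.6 in S100GFP+ cells and 3.22 ± 1.19 in NG2DsRed+ cells (-6.61 and -2.37, adjusted p = 2.23e-13 and 1.00e-05). Leukocyte integrins led the S100GFP+ side, with Itgb2 at 147 ± 90.3 CPM there against 0.257 ± 0.410 in PSCs, beside the macrophage and leukocyte marker sums given above.

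Of 24 tested adaptors and effectors that bind integrin tails or act below them, 8 were higher and 9 lower in PSCs than in S100GFP+ cells (list median -0.15), and 4 were higher and 10 lower than in NG2DsRed+ cells (list median -0.39). Beside these stand 22.9% higher and 24.1% lower over all genes against S100GFP+ cells, and 20.9% and 23.1% against NG2DsRed+ cells. The focal adhesion gene Tns3 was at 371 ± 100 CPM in PSCs, 40.3 ± 11.6 in S100GFP+ cells and 43.8 ± 6.05 in NG2DsRed+ cells (3.20 and 3.08, adjusted p = 6.67e-14 and 1.06e-14). Dst, the gene of dystonin, a linker of integrins and the cytoskeleton, was higher in PSCs by 1.95 and 1.35 (adjusted p = 1.44e-09 and 2.91e-07), and talin 2 (Tln2) by 1.87 and 0.88 (adjusted p = 3.34e-10 and 3.20e-05). Lower in PSCs than in both were Parvb (-2.84 and -2.96, adjusted p = 3.83e-11 and 1.28e-11), which encodes a partner of integrin-linked kinase, and Kank1 (-2.62 and -3.24, adjusted p = 7.78e-07 and 2.15e-08), a talin binding protein. The kinase gene Ptk2 (focal adhesion kinase) and the kindlin gene Fermt2 were higher in PSCs than in S100GFP+ cells (2.02 and 1.41, adjusted p = 8.71e-08 and 4.42e-07) and did not pass against NG2DsRed+ cells (0.51 and -0.04, adjusted p = 0.0678 and 0.885). Among 5 tetraspanins that associate with integrins, 2 were higher and none lower in PSCs than in S100GFP+ cells, and 1 was higher and 1 lower than in NG2DsRed+ cells. Cd9 was higher in PSCs than in both (0.95 and 1.21, adjusted p = 0.000795 and 2.06e-05).

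The ligand genes that passed the test were lower in PSCs for the greater part. Of 9 tested laminin chains, 4 were lower in PSCs than in S100GFP+ cells and 6 than in NG2DsRed+ cells, and none was higher in either comparison (list medians -0.97 and -1.28). The other 5 did not pass against S100GFP+ cells. Over all genes 24.1% and 23.1% were lower in the 2 comparisons. Lama4 and Lamc1, chains of a laminin of peripheral nerve and vessel walls, stood at 368 ± 90.4 and 626 ± 274 CPM in PSCs and passed in neither comparison (adjusted p from 0.0508 to 0.547). Lama2, the alpha chain of muscle and nerve laminin, was lower in PSCs than in both (-1.92 and -2.29, adjusted p = 1.21e-05 and 6.49e-07). So was Lama3 (-2.06 and -3.71, adjusted p = 0.00354 and 3.57e-06), a chain of an epithelial laminin.

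Of 12 collagen chains, 3 were higher and 8 lower in PSCs than in S100GFP+ cells, and 1 was higher and 11 lower than in NG2DsRed+ cells (list medians -2.44 and -2.00). All genes tested were higher in 22.9% and lower in 24.1% of cases against S100GFP+ cells, and in 20.9% and 23.1% against NG2DsRed+ cells. The chain higher in both was Col4a4, at 79.7 ± 18.5 CPM in PSCs, 16.0 ± 7.06 in S100GFP+ cells and 14.2 ± 4.50 in NG2DsRed+ cells (2.32 and 2.49, adjusted p = 1.03e-08 and 7.65e-10). Its partners in the basement membrane, Col4a3 and Col4a5, were lower in PSCs than in both (-2.33 and -1.89 for Col4a3, -1.91 and -1.93 for Col4a5, adjusted p from 1.47e-06 to 0.00423). Col4a1 and Col4a2, the chains of the common type IV collagen, were higher in PSCs than in S100GFP+ cells (1.07 and 1.30, adjusted p = 0.00365 and 0.000378) and lower than in NG2DsRed+ cells (-1.35 and -1.09, adjusted p = 0.000243 and 0.00131). The interstitial chains Col6a3 (-3.11 and -3.25), Col6a2 (-3.12 and -2.74) and Col3a1 (-4.60 and -2.58) were lower in PSCs than in both (adjusted p from 3.36e-11 to 3.16e-07).

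Of 11 RGD-type ligands and carriers of latent TGFβ, 10 were lower in PSCs than in S100GFP+ cells and none was higher, and 8 were lower and 1 higher than in NG2DsRed+ cells (list medians -1.88 and -2.33). The shares lower over all genes were 24.1% and 23.1%, and the shares higher 22.9% and 20.9%. Fibronectin (Fn1) stood at 60.5 ± 51.1 CPM in PSCs, 4074 ± 1303 in S100GFP+ cells and 501 ± 247 in NG2DsRed+ cells (-6.07 and -3.05, adjusted p = 3.01e-12 and 1.10e-07). The genes of proteins that hold latent TGFβ at the cell surface, Lrrc32 (-2.60 and -4.09) and Nrros (-4.81 and -2.50), were lower in PSCs than in both (adjusted p from 6.44e-10 to 0.000133). Ltbp3, a binding protein of latent TGFβ in the matrix, was the one that was higher in PSCs than in NG2DsRed+ cells (0.84, adjusted p = 0.000235), at 88.7 ± 25.0 against 49.4 ± 13.4 CPM. All lists were drawn up with earlier results of these data known, and their counts are given as a description.

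The genes whose log2 CPM followed each subunit most closely over the 27 libraries are given by Pearson's r as a description, since the libraries share their cell types. For Itgb8 they were Kcna2 (0.973), Erbb3 (0.966) and Gpm6b (0.965), of which Erbb3 encodes the neuregulin receptor of Schwann cells. Inside single cell types these were 0.77, 0.89 and 0.02 in PSCs, 0.85, 0.84 and 0.94 in S100GFP+ cells, and 0.34, -0.19 and 0.49 in NG2DsRed+ cells. For Itga2 the closest genes were Megf9 (0.961), P2rx7 (0.952) and Retreg1 (0.952). Within PSCs alone those correlations were 0.53, 0.16 and 0.40. They were 0.38, 0.05 and 0.02 within S100GFP+ cells, and 0.82, 0.56 and 0.41 within NG2DsRed+ cells. Itga1 went with Sorbs2 (0.963), Cspg4 (0.962) and Epn2 (0.961). Regulatory sequence of the NG2 gene Cspg4 drives dsRed, a reporter used for sorting, and the part of sorting in this match was not tested. The value for Itga1 and Cspg4 was -0.20 within PSCs, 0.86 within S100GFP+ cells and 0.56 within NG2DsRed+ cells. Itga7 went with Cox4i2 (0.974), Rgs5 (0.966) and S1pr3 (0.963), of which Rgs5 is a pericyte marker. For Itga3 the closest were Lama5 (0.938), Cx3cl1 (0.931) and Cav1 (0.929). The value for Lama5 was 0.76 within PSCs, 0.95 within S100GFP+ cells and 0.90 within NG2DsRed+ cells. Itga6 went with Dysf (0.962) and Tcim (0.951), and Itgb1 with Gnb4 (0.953) and Klhl23 (0.929). For Itgb4 the closest were Atp1b2 (0.927), Ptk2 (0.914) and Sntb1 (0.914), for Itga8 Egflam (0.944), Sort1 (0.929) and Cdk6 (0.926), and for Itgav Frmd6 (0.946), Lrp12 (0.920) and Sh3d19 (0.910). Among the subunits themselves Itga2 and Itgb8 had the highest value (0.92), followed by Itga6 and Itga7 (0.91).

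Some of the subunits share sequence with other annotated genes. The exons of Itga7, Itga8, Itgav and Itgb4 overlap those of a gene on the opposite strand, respectively Mettl7b, E030013I19Rik, Gm13684 and B230344G16Rik, and the library kit does not mark strand. Those partners were at 0.174 to 3.37 CPM in the means of every cell type. Itga1 overlaps Gm49395 on its own strand, at 0.261 to 2.41 CPM. Reads in such overlaps cannot be assigned, so these levels carry that uncertainty.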

How the data were processed

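RNA from 36 sorted samples was sequenced after SMART-Seq amplification, and 27 libraries had a column in the deposited table (9 PSC, 8 S100GFP+, 10 NG2DsRed+). The other 9 were not analysed here. The authors used ea-utils and Btrim for trimming, HISAT2 for alignment to GRCm38 (build from the submitters' processing notes) and HTSeq for counting, and the deposited values are raw counts per gene. Versions, the annotation and the strand setting are not given in sources used here. The authors dropped failed libraries by eye and tested with DESeq2. Their methods name fewer S100GFP+ libraries than the table's 8.

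Symbols, exon lengths and positions came from GENCODE M21, which holds 99.7% of the 52636 identifiers. Genes with low counts were removed with filterByExpr (minimum count 10), leaving 15330. All 3 cell types were fitted together with edgeR 4.0.16 (TMM, quasi-likelihood F-test, Benjamini-Hochberg threshold 0.05) in R 4.3.3. SEs were derived from the F statistic. Levels are CPM (per 1000000), and log2 CPM used a prior count of 2. Alternatives used DESeq2 1.42.0 and limma 3.58.1. The fit was also run on simulated counts in which few genes differed, and only in PSCs. Far more genes differ in these data, so that run does not test the calls made here. The members, gene lists and tests were chosen with earlier results of these data known. The text names the 10 members, the 3 genes of each list with the largest smaller fold change where PSCs differed from both other cell types in 1 direction, others where a list is counted, and the 3 genes most like each member. Some genes that this rule names are not reported here. Itgb2, Itgb3, Itgb5, Dst, Tln2, Ptk2, Fermt2, Lama4, Lamc1, Col4a1 to Col4a5 and Ltbp3 were named after their values were seen.

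Total counts of 5221655 to 9592875 per library limit precision for genes at a few CPM. PCR copies cannot be told from molecules. No libraries were identical, and each pair of 1 cell type differed by more than sampling noise (lowest chi-square divided by its degrees of freedom 8.10). Each replicate was 1 mouse. Whether cell types came from the same mice is not given, and libraries were treated as independent.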

Additional observations from a re-analysis of the deposited data

Results flagged for a closer look

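Itgb1 in S100GFP+ library 17 stood at 537 CPM, far from the other 7 S100GFP+ libraries at 372 to 438 CPM. Its gap to the nearest of them took 0.600 of the range of the group, above Dixon's critical value for 8 samples. It was the only value flagged in 30 groups of libraries (10 subunits in 3 cell types), of which chance flags about 1 in 20. The same library had the highest endothelial marker sum (3389 CPM) and pericyte and smooth muscle marker sum (1649 CPM) among S100GFP+ libraries, and their part in the value was not tested.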

How the results depend on the processing

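No paired analysis was possible because library numbers are not repeated between cell types. Of 30 tests of the subunits, 24 passed the threshold, and 23 of these kept direction and call under all 35 alternatives. The exception was Itgav between S100GFP+ and NG2DsRed+ cells, which missed it by total counts (0.24, adjusted p = 0.301), with no filter (0.44, adjusted p = 0.0773), without S100GFP libraries 14, 17 and 22 (0.46, adjusted p = 0.0812) and in 5 leave-one-out fits (range 0.40 to 0.57 over all). Of 6 tests that did not pass, 1 kept its direction and side throughout. Signs turned for PSCs against S100GFP+ cells in Itga3 (0.13 with the technical share as a term, 0.73 without libraries 14, 17 and 22), Itga6 (0.66 by limma-voom, 0.01 with no filter, 0.33 with the share, 0.51 by total counts, 0.78 without the libraries, and -0.19 to 0.35 leaving out 1 library) and Itga7 (0.42 by limma-voom, 0.25 with the share, 0.45 by total counts, 0.53 without the libraries, and -0.20 to 0.13 leaving out 1 library), and for Itgb4 against NG2DsRed+ cells by limma-voom (-0.03). The causes were not tested.

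Over all genes, 3512 were higher and 3687 lower in PSCs than in S100GFP+ cells, but 6786 and 2438 by total counts and 12649 lower with no filter, which tests more genes. Against NG2DsRed+ cells 3197 were higher and 3546 lower, and 5103 and 2722 by total counts. For S100GFP+ against NG2DsRed+ cells, 2771 were higher and 2329 lower, and 2057 and 3791 by total counts, 3511 lower by limma-voom and 8194 higher with no filter. With coding length in place of the exon union, chosen after seeing the data, the share of Itga1 moved to 62.3% in PSCs and 50.6% in NG2DsRed+ cells. Lengths from a protein table were not run. Depth limits Itga3 in PSCs and Itga2 in NG2DsRed+ cells, with 200 and 270 counts in all.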
